A study of Mus musculus with 12 samples.

Results

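The comparison concerns DNA methylation in the ES cell line CC9 dunni against the ES cell line CC9 spretus. The arrays were chosen by their titles, which gave 3 arrays of CC9 dunni and 3 of CC9 spretus, 6 of the 12 arrays of the series. The series asked how mtDNA from different mouse species bears on the methylation of the same nuclear genome, and it holds 3 biological replicates of each of 4 lines. The cells of every line came from CC9.3.1 ES cells, which were obtained from a 129SvEv-Gpi1c(129S6) embryo. According to the labels, CC9 dunni carries the mtDNA haplotype of *Mus terricolor* and CC9 spretus that of *Mus spretus*. CC9 pahari, with the haplotype of *Mus pahari*, had replicates in both scan periods and entered the estimate of the spread between replicates. All cells were grown on feeder cells with serum and LIF and were moved to feeder-free culture before DNA was taken. Each haplotype was present in 1 line, so a haplotype and the line that carries it cannot be told apart. The haplotypes were taken from the labels. Probe positions were read for the nuclear chromosomes only, so whether any probe lay on the mtDNA was not checked.

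DNA methylation places a methyl group on cytosine, in mammals mostly where the cytosine is followed by guanine. CpG islands are short stretches rich in this dinucleotide, many of them at promoters, and most stay unmethylated in ES cells, while methylated islands include those of imprinted regions and of many germline genes. The mitochondria produce metabolites that enzymes adding or removing the methyl group need, such as *α*-ketoglutarate for the TET enzymes.

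Methylated fragments were collected by MeDIP, an immunoprecipitation with an antibody to 5mC, and were labelled with Cy5 (the IP signal), while the DNA before precipitation was labelled with Cy3 (the input signal). Both were hybridised to a CpG island array of 88737 probes, 45 to 60 bases long, with positions on mouse build mm9. Values are given as log2(IP/input) with the median probe of each array set to 0, so that a value of 2 is an IP/input ratio 4 times that of the median probe. A higher value means more methylated DNA recovered at that place relative to the rest of the array, and no value is a percentage of methylated cytosines. The 88321 probes with a position formed 14580 loci. Neighbouring probes were joined into a locus where no more than 1000 bp lay between them, and the value of a locus is the mean over its probes.

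Replicates 1 and 2 of CC9 spretus, CC9 dunni and CC9 pahari were scanned in an earlier period and replicate 3 of each in a later period. In the earlier period CC9 spretus replicate 1 and replicate 2 each had a slide and a scan day of their own, and CC9 dunni replicates 1 and 2 shared a slide and a scan day different from both. Line and slide or day therefore cannot be told apart within the earlier period. CC9 pahari replicates 1 and 2 shared a slide of their own and the scan day of CC9 dunni replicates 1 and 2, so a level that CC9 pahari shares with CC9 dunni cannot be told apart from that day, and the spread between these CC9 pahari replicates is that within 1 slide. So is the spread between CC9 dunni replicates 1 and 2. In the later period CC9 spretus replicate 3 and CC9 dunni replicate 3 lay on the same slide and were scanned on the same day. The IP signal was well above background at 93.2%, 89.8% and 93.8% of probes in CC9 spretus replicates 1, 2 and 3, and at 80.0%, 80.6% and 95.9% in CC9 dunni replicates 1, 2 and 3. CC9 dunni replicates 1 and 2 were thus the dimmest of the 6 arrays. The spread of the log2 ratios over probes, as a median absolute deviation, was 1.23, 0.77 and 0.94 in CC9 spretus and 1.03, 1.00 and 0.59 in CC9 dunni. Across loci, which are not independent replicates, Pearson's r was 0.980 between CC9 dunni replicates 1 and 2 on their shared slide, 0.963 between the replicate 3 arrays of both lines on theirs, 0.943 between CC9 spretus replicates 1 and 2, and 0.904 between CC9 dunni replicates 1 and 3. Arrays that shared a slide were closer to each other than arrays of the same line on different slides.

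Few loci differed between CC9 dunni and CC9 spretus at an adjusted p under 0.05. The clearest was a locus on chromosome 5 that was much more methylated in CC9 dunni. The locus chr5:144014658-144017045 spans 2388 bp and holds 20 probes. Its mean log2(IP/input) was 1.17, 1.18 and 1.17 in CC9 spretus replicates 1, 2 and 3 and 3.01, 3.05 and 3.63 in CC9 dunni replicates 1, 2 and 3. The CC9 spretus arrays were nearly identical, every CC9 dunni array lay well above them, and the highest was replicate 3. The difference, CC9 dunni minus CC9 spretus, was 2.06 ± 0.15 (SE from the fit of 9 arrays, n = 3 and 3 in these lines, adjusted p = 0.00574, limma with scan period as a block). It was 1.85 in the earlier period and 2.46 in the later period, between arrays of the same slide. CC9 pahari read 0.42, 0.45 and 0.32 at this locus, below both lines, and the 3 arrays of CC9 mus, the line with *Mus musculus* mtDNA, which was scanned in the later period only and was not fitted, read 0.68, 2.46 and 4.65. These levels are given for comparison only, and 1 CC9 mus array was above every CC9 dunni array. The median absolute deviation over probes was 0.46, 1.99 and 1.94 in CC9 mus replicates 1, 2 and 3. The CC9 mus levels here and below are therefore not on one scale.

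The difference ran through the whole locus. All 20 probes were higher in CC9 dunni with no overlap between the arrays of the lines, by 1.21 to 2.66, and 13 of them passed an adjusted p of 0.05 on their own. Over the 20 probes the values ran from 0.37 to 1.80 in CC9 spretus replicate 1 and from 1.91 to 3.71 in CC9 dunni replicate 1, so that the highest probe of the one was below the lowest of the other. The largest difference was at A_68_P24155690 (chr5:144016148-144016192), where CC9 spretus read 0.83, 1.30 and 0.43 and CC9 dunni read 3.46, 3.67 and 3.43, a difference of 2.66 ± 0.22 (SE, adjusted p = 0.0176). The IP and input signals were well above background at 60 of 60 spots in CC9 spretus and 59 of 60 in CC9 dunni. The input signal of the locus differed by 0.14. The nearest loci on the array did not share the difference: the locus 17403 bp to the left differed by −0.24 and the locus 14057 bp to the right by 0.02, and neither passed the test. The locus passed with each of the 6 arrays left out in turn (adjusted p 0.00299 to 0.0330). It did not pass with arrays scaled to equal spread (adjusted p = 0.154, difference 2.56) or with scan day in place of scan period (adjusted p = 0.0634), and the range over 15 alternatives was 0.000602 to 0.154.

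**Figure D1:**
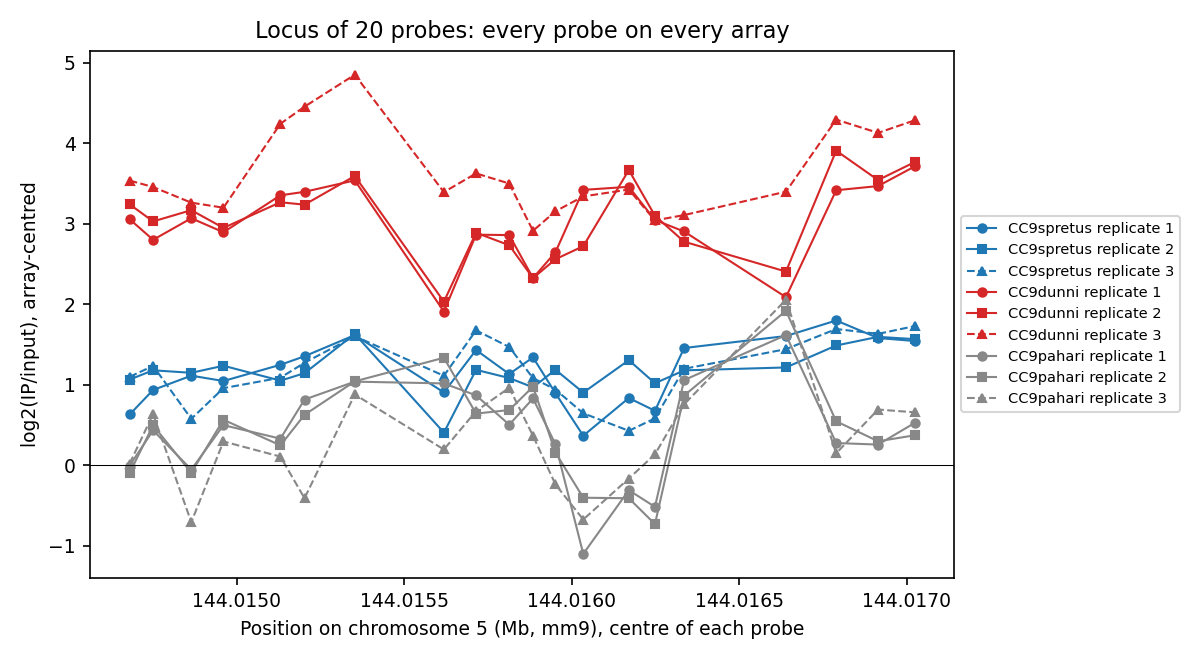
Log2(IP/input), centred on the array median, against the mm9 position of each of the 20 probes of the chromosome 5 locus, with 1 line per array; solid lines are replicates 1 and 2 (earlier scan period) and dashed lines replicate 3 (later). The CC9 dunni arrays lie above the CC9 spretus arrays at all 20 probes.

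Loci at 3 other places held a probe that was higher in CC9 dunni. At chr7:144086069-144086337, a locus of 3 probes, CC9 spretus read 0.08, −0.27 and −0.54 and CC9 dunni read 2.17, 2.23 and 1.15. CC9 spretus was near the array median on each array and CC9 dunni above it on each, with replicate 3 the lowest. The difference of 2.09 ± 0.17 (SE, adjusted p = 0.00598) also passed with each of the 6 arrays left out (adjusted p 0.00299 to 0.0495). It did not pass without the scan period (0.109) or with scan day in its place (0.0837), and the adjusted p ranged from 0.00146 to 0.109 over the alternatives. With the normexp background correction the locus differed by 1.35 (adjusted p = 0.038 in limma). Its leading probe A_68_P25562263 (chr7:144086164-144086208) differed by 2.47 ± 0.20, while the input signal at that probe differed by −1.05. A lower input raises the ratio, and the part of the input in this difference was not tested. The input of the whole locus differed by −0.31.

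The probes that passed on chromosome 4 lay in loci whose means did not pass. At the probe chr4:129985621-129985680, CC9 spretus read −0.81, −0.74 and −0.74 and CC9 dunni read 0.83, 0.86 and 1.23, with no overlap. The difference was 1.74 ± 0.19 (SE, adjusted p = 0.0407) with an input difference of −0.73, and with normexp it was 1.02 (adjusted p = 0.238). All 10 probes of its locus leaned the same way, 5 of them without overlap. The mean of the locus was −0.13, −0.25 and 0.28 in CC9 spretus and 0.63, 0.59 and 0.91 in CC9 dunni. These did not overlap, but the difference (0.74, adjusted p = 0.0898) did not pass. At the probe chr4:45332983-45333029, CC9 spretus read −2.27, −2.23 and −1.64 and CC9 dunni read −0.51, −0.80 and 0.49, a difference of 1.77 ± 0.18 (SE, adjusted p = 0.0346). Both lines were below the array median there on nearly every array, and 1 of 3 arrays of each line had an IP signal well above background. The input differed by −1.23, the difference shrank to 0.39 with the normexp background correction, and 3 of the 6 probes of the locus leaned the other way, so that the locus mean differed by 0.27 (adjusted p = 0.348).

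Loci at 7 places held a probe that was less methylated in CC9 dunni, and all 7 also passed as whole loci. At A_68_P23956956 (chr5:106160886-106160930), CC9 spretus read 3.79, 4.22 and 4.17 and CC9 dunni read 1.64, 1.34 and 1.95. The site was strongly enriched in CC9 spretus and less so in every CC9 dunni array, and CC9 pahari lay between them at 2.90, 2.82 and 2.98, while CC9 mus read 1.86, 4.23 and 6.57. The difference was −2.42 ± 0.19 (SE, adjusted p = 0.0176), the input differed by −0.60, and the 5 probes of the locus were all lower in CC9 dunni without overlap (−2.42 to −0.91). The locus mean differed by −1.66 ± 0.17 (SE, adjusted p = 0.00761).

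The largest fall at a probe that passed, −3.11 ± 0.32 (SE, adjusted p = 0.0346), was at A_68_P20900642 (chr1:187165325-187165384). CC9 spretus read 4.32, 4.43 and 6.39 there and CC9 dunni read 0.70, 1.20 and 3.91. Replicate 3 was the highest array in both lines, the lines did not overlap, and they differed by −3.43 in the earlier period and −2.48 in the later. The signals at this probe were dim: the input was well above background on 1 of 3 arrays of CC9 spretus and 0 of 3 of CC9 dunni, and the IP on 3 of 3 and 1 of 3. With the normexp background correction the fall was −1.03 (adjusted p = 0.691), smaller than at the probes chr1:74708445-74708489 (−1.80) and chr5:106160886-106160930 (−1.43), so its rank depends on the background correction. The other probes of its locus differed less, the least by −0.27, and the locus mean was −1.25 ± 0.14 (SE, adjusted p = 0.0144), with CC9 spretus at 4.56, 4.62 and 6.33 and CC9 dunni at 3.28, 3.42 and 5.07. At the level of the locus the arrays of the lines overlapped, since the later array of CC9 dunni was above the earlier arrays of CC9 spretus.

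At the 5 other places CC9 spretus was enriched and CC9 dunni lay closer to the array median. The probe chr5:150480919-150480963 read 2.27, 2.38 and 1.95 in CC9 spretus and 0.07, 0.05 and −0.13 in CC9 dunni. It differed by −2.20 ± 0.18 (SE, adjusted p = 0.0176) with an input difference of 0.49, and 6 of the 6 probes of its locus were lower in CC9 dunni. The probe chr8:72240747-72240791 read 2.39, 1.76 and 2.14 in CC9 spretus and 0.26, 0.09 and 0.27 in CC9 dunni, a difference of −1.89 ± 0.19 (SE, adjusted p = 0.0352) with an input difference of 0.43. CC9 pahari read 0.19, 0.05 and 0.20 at that probe and CC9 mus 0.75, 2.79 and 1.86. The probe chr2:160471323-160471367 read 2.28, 2.48 and 2.83 in CC9 spretus and 0.73, 0.45 and 0.93 in CC9 dunni, a difference of −1.83 ± 0.21 (SE, adjusted p = 0.0496) with an input difference of −0.21. It opens a locus of 11 probes over 1483 bp, all 11 lower in CC9 dunni and 10 without overlap, whose mean was 1.42, 1.64 and 1.47 in CC9 spretus and 0.11, 0.18 and 0.34 in CC9 dunni.

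The remaining 2 places were on chromosomes 1 and 12. The probe chr1:74708445-74708489 read 2.24, 1.60 and 1.67 in CC9 spretus and 0.13, 0.17 and 0.02 in CC9 dunni, a difference of −1.73 ± 0.19 (SE, adjusted p = 0.0453) with an input difference of −0.05. The probe chr12:66137288-66137332 read 2.30, 1.77 and 1.88 in CC9 spretus and 0.22, 0.52 and 0.11 in CC9 dunni, a difference of −1.70 ± 0.19 (SE, adjusted p = 0.0496) with an input difference of 0.46. A higher input lowers the ratio, and the part of the input in these falls was not tested. No array of the one line reached into the range of the other at either probe. All the named probes were chosen on that condition. The locus on chromosome 12, chr12:66137121-66137643, had 3 probes that were all lower in CC9 dunni, and its mean differed by −1.84 ± 0.16 (SE, adjusted p = 0.00598). It passed with each of the 6 arrays left out (adjusted p 0.00101 to 0.0484), as did the loci at chr5:144014658 and chr7:144086069. It missed the threshold with the normexp background correction (−0.76, adjusted p = 0.408, the highest of 15 alternatives, against 0.00101 as the lowest).

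For the other 6 loci of these lower probes the call was lost without 1 or more arrays, at an adjusted p of 0.0520 to 0.101 and differences of −1.70 to −1.16. At chr5:150480653 and chr8:72240328 this was so without CC9 dunni replicate 1 (0.0563 at each), and at chr2:160471323 without replicate 1 (0.0563) or replicate 2 (0.0535) of that line. At chr5:106160886 it was so without replicate 1 (0.0563), 2 (0.0587) or 3 (0.0587) of CC9 dunni. At chr1:187164952 and chr1:74708251 it was so without any 1 of the CC9 dunni arrays (0.0619 to 0.0807 and 0.0656 to 0.101) or without CC9 spretus replicate 1 (0.0520 at each), and at chr1:74708251 also without CC9 spretus replicate 3 (0.0536). Scan day in place of scan period ended the call at chr5:150480653 (0.0702), chr8:72240328 (0.0783), chr2:160471323 (0.0837), chr1:187164952 (0.227) and chr1:74708251 (0.0718). The differences there were −1.62 to −1.08, and chr5:106160886 kept its call (0.0217). Changes of the signal scale moved some of these loci further. With normexp, chr5:150480653 differed by −0.87 (0.151), chr8:72240328 by −0.78 (0.203) and chr1:187164952 by −1.05 (0.58). With equal spread, chr1:187164952 differed by −0.40 (0.830), chr5:106160886 by −1.35 (0.31), chr2:160471323 by −1.22 (0.0895) and chr5:150480653 by −1.18 (0.0518). Of 15 alternatives, the call was kept in 11 at chr5:150480653, 12 at chr8:72240328, 11 at chr2:160471323, 10 at chr5:106160886, 7 at chr1:187164952 and 6 at chr1:74708251.

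The calls at single probes depended on the processing as well. With normexp the differences were −1.14 (adjusted p = 0.214) at chr5:150480919, −1.004 (0.181) at chr8:72240747, −0.93 (0.436) at chr2:160471323, −0.95 (0.159) at chr12:66137288 and −1.43 (0.521) at chr5:106160886, so that these calls were lost, while chr1:74708445 kept its call (−1.80, 0.0281), as did the leading probes of the loci at chr5:144014658 (1.83, 0.00719) and chr7:144086069 (1.82, 0.0334). Of 21 alternatives the call was kept in 11 and 12 at these 2 leading probes, 6 at chr4:129985621, 9 at chr5:150480919, 9 at chr8:72240747, 5 at chr2:160471323, 10 at chr1:74708445 and 6 at chr12:66137288, and of 20 in 6 at chr4:45332983, 6 at chr1:187165325 and 10 at chr5:106160886.

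Across the array, 26 of 88737 probes (0.0293%) differed at an adjusted p under 0.05, 17 higher (0.0192%) and 9 lower (0.0101%) in CC9 dunni, and they fell in 11 loci. Of the 17 higher probes, 13 were those of the chromosome 5 locus. The 26 differences were 1.45 to 3.11 in size with a median of 2.05, against a median of 0.23 over all probes. At an unadjusted p under 0.05 the count was 11669 probes. The arrays of the lines did not overlap at 10462 probes (11.8%), the 26 among them. The number of probes that passed changed with the arrays and the model used. It was 0 in limma without CC9 spretus replicate 1 (8105 at an unadjusted p under 0.05), without CC9 dunni replicate 1 (8369) and without CC9 dunni replicate 2 (8381), and 51 without CC9 spretus replicate 2. With a replicate block in place of the scan period it was 0 (10506 unadjusted). The division into higher and lower was 6 and 5 with arrays scaled to equal spread and 14 and 26 with the normexp background correction, against 17 and 9 without them.

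Counted by locus, lower methylation in CC9 dunni was the more frequent direction. Of 14580 loci, 39 (0.267%) differed at an adjusted p under 0.05, 10 higher (0.0686%) and 29 lower (0.199%) in CC9 dunni, while 2106 had an unadjusted p under 0.05, 1057 of them higher and 1049 lower. With arrays scaled to equal spread the division was 5 and 5 (7 of these loci were among the 39), and with the normexp background correction 2 and 56 (9 among the 39). The differences were 0.67 to 3.51 in size, with a median of 1.33 against 0.15 over all loci. Of the 39 loci, 30 held no probe that passed on its own. Among the 14580 loci, the arrays of the lines did not overlap at 904 with CC9 dunni higher (6.20%) and 698 with CC9 dunni lower (4.79%), and these held 7 of the 10 and 15 of the 29. The 39 loci kept their side in each of 15 alternatives, but they were chosen by their differences on the same arrays, so this is not a separate result. The number of loci that passed was 21 without CC9 spretus replicate 1 (19 among the 39) and 43 without CC9 spretus replicate 2 (26) or replicate 3 (25). It was 3 without CC9 dunni replicate 1 (3), 6 without CC9 dunni replicate 2 (6) and 15 without CC9 dunni replicate 3 (12). The 3 loci left without CC9 dunni replicate 1 were 2 higher and 1 lower. With a replicate block in place of the scan period 18 loci passed (18 among the 39).

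**Figure D2:**
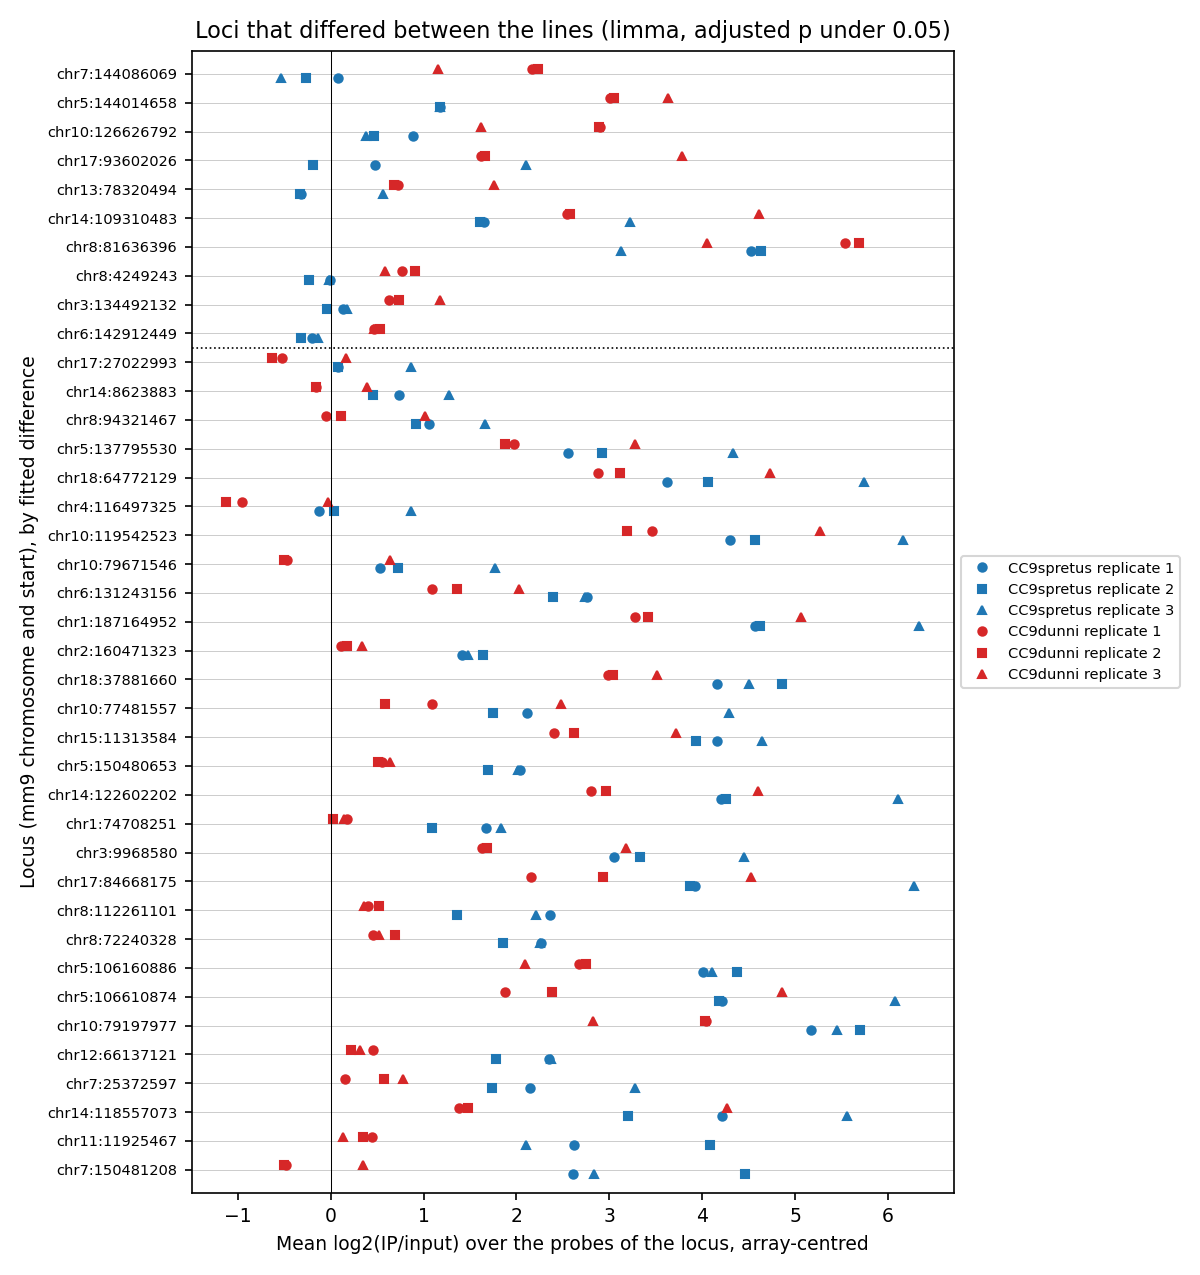
Mean log2(IP/input), centred on the array median, of the 39 loci that differed between the lines (horizontal axis), with 1 row per locus in the order of the fitted difference and 1 point per array; red is CC9 dunni, blue is CC9 spretus, and triangles are replicate 3. The 10 loci above the dotted line were higher in CC9 dunni and the 29 below it lower, and at several loci replicate 3 of both lines lies to the right of replicates 1 and 2.

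The loci with the largest falls were not among those chosen by the rule on probes and were picked after their values were seen. At chr7:150481208-150482535, a locus of 8 probes, CC9 spretus read 2.61, 4.46 and 2.83 and CC9 dunni read −0.48, −0.50 and 0.35. The locus was enriched in each CC9 spretus array, most in replicate 2, and at or near the array median in each CC9 dunni array. CC9 pahari read −0.27, −0.38 and 0.19 and the 3 arrays of CC9 mus read −0.14, −0.10 and −0.48, so that CC9 spretus alone was enriched. The difference was −3.51 ± 0.46 (SE, adjusted p = 0.0246). It passed without any 1 of the CC9 spretus arrays (−2.84 without replicate 2, adjusted p = 0.00101) and missed the threshold without CC9 dunni replicate 1 (0.142), replicate 2 (0.137) or replicate 3 (0.0623), and over 15 alternatives the adjusted p ran from 0.00101 to 0.143.

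At chr11:11925467-11926345, a locus of 10 probes, CC9 spretus read 2.62, 4.08 and 2.10 and CC9 dunni read 0.44, 0.35 and 0.13. CC9 spretus replicate 2 was again the highest array, and the lines did not overlap. CC9 pahari was at 0.33, 0.41 and 0.09, with CC9 dunni, whereas the CC9 mus arrays were spread from 0.63 to 2.97. The difference was −2.63 ± 0.35 (SE, adjusted p = 0.0268), and it was −2.11 without CC9 spretus replicate 2 (adjusted p = 0.00101). It missed the threshold without CC9 dunni replicate 1 (0.151), replicate 2 (0.144) or replicate 3 (0.0840), and the alternatives ran up to 0.171. A further large fall was at chr14:118557073-118557497, with CC9 spretus at 4.21, 3.20 and 5.55 and CC9 dunni at 1.38, 1.48 and 4.26. Here the later array of CC9 dunni was as high as the earlier arrays of CC9 spretus, 8 of 12 spots in CC9 spretus and 4 of 12 in CC9 dunni were well above background in both channels, and the fitted difference was −1.95 ± 0.28 (SE, adjusted p = 0.0365). This call was lost with a replicate block (0.0746), and without CC9 dunni replicate 1 (0.176), 2 (0.168) or 3 (0.0587) or CC9 spretus replicate 3 (0.0508). The difference was −0.89 with normexp (0.697) and −1.06 with equal spread (0.497), and the call was kept in 4 of 15 alternatives, with an adjusted p of up to 0.77.

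The levels of the 39 loci in CC9 spretus and CC9 dunni follow in part from the sign of the difference by which the loci were divided. At the 10 loci higher in CC9 dunni the median level was 0.34 in CC9 spretus against 2.10 in CC9 dunni, with CC9 pahari at 0.56. CC9 spretus averaged below 0 at 4 of these loci and above 2 at 2, and CC9 dunni averaged above 2 at 5. At the 29 lower loci the median was 2.93 in CC9 spretus against 1.39 in CC9 dunni, with CC9 pahari at 2.06. CC9 spretus averaged above 2 at 20 of the 29 and CC9 dunni at 13. The CC9 pahari levels of the higher and the lower loci overlapped, from −0.71 to 4.70 and from −0.64 to 4.71, and were not tested. Over all 14580 loci the CC9 spretus mean was above 2 at 1036 and the CC9 dunni mean at 1033. The median input difference was −0.22 at the higher loci, −0.05 at the lower loci and −0.07 over all loci, and its part in the calls was not tested.

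Loci were also grouped by the level of CC9 pahari, which is on neither side of the contrast although its arrays entered the estimate of the spread. With arrays left unscaled, the share of loci that differed was largest among enriched loci. Of the 924 loci with a CC9 pahari mean above 2, 1.84% differed between the lines, 2 higher and 15 lower in CC9 dunni. With arrays scaled to equal spread, each of these 2 higher and 15 lower loci lost its call (adjusted p 0.251 to 0.949 in limma). Whether the order of the classes holds on that scale was not tested. Of the 6985 loci between −1 and 0, 0.0859% differed, 4 higher and 2 lower, and of the 5940 between 0 and 1, 0.253% differed, 4 higher and 11 lower. Of the 622 between 1 and 2, 0.161% differed. Enriched loci as a whole showed no fixed direction: the median difference over the 924 was −0.20, with 0.02 in the earlier period and −0.61 in the later, and with arrays scaled to equal spread these became 0.41, −0.25 and 1.69. The median of all loci in the enriched class therefore changed sign with the scaling and the period.

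The share that passed was larger among loci of few probes. Of loci with 1 probe 0.840% passed, of those with 2 probes 0.658%, of those with 3 to 5 probes 0.333%, of the 5002 with 6 to 9 probes 0.12%, and of the 1845 with 10 or more 0.163%. Differences of at least 1 in size were found at 6.16% of the 357 loci with 1 probe, 3.16% of those with 2, 0.605% of those with 3 to 5, 0.3% of those with 6 to 9 and 0.325% of those with 10 or more. The median locus that differed had 4 probes in both directions, against 5 over all loci. All spots were well above background in both channels at 13 of the 39 loci, and at 1 locus fewer than 50% of the spots of a line were.

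Of the 78 neighbours of the 39 loci (1 locus is a neighbour of 2 of them and is counted for each), 17 had an unadjusted p under 0.05, against 2106 of all 14580, and 0 passed in limma, against 39 of all. Of the 78, 38 leaned to the same side, and their median difference in size was 0.14, close to the 0.15 of all loci. The median distance to a neighbour was 42236 bp. Only at 2 places did a pair of the loci that differed lie within 500000 bp. On chromosome 10, chr10:79197977-79198960 (−1.81) and chr10:79671546-79671911 (−1.12) were 472586 bp apart with 39 loci between them, whose median difference was 0.05. On chromosome 5, chr5:106160886-106161472 (−1.66) and chr5:106610874-106611188 (−1.78) were 449402 bp apart with 1 locus between them, which differed by 0.04.

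The earlier period was also fitted alone, a choice made after the data were seen, which leaves replicate 3 of both lines unused. On replicates 1 and 2, 35 of 14580 loci (0.240%) passed an adjusted p of 0.05 in limma, 13 higher and 22 lower in CC9 dunni, and 2640 had an unadjusted p under 0.05. At replicate 3, on a slide the lines shared, CC9 dunni was above CC9 spretus at 12 of the 13 and below it at 22 of the 22. The median of the 13 went from 1.57 on replicates 1 and 2 to 0.81 at replicate 3, and that of the 22 from −1.43 to −1.14. The 12 loci that stayed higher differed by 0.09 to 2.46 at replicate 3. Their agreement was not tested against other loci of a like level. The exception was chr1:74904986-74905368, a locus of 2 probes that differed by 1.62 in the earlier period and by −0.14 at replicate 3. Over all loci, 57.8% had the same direction in both periods. At the lower loci the agreement is not a separate confirmation, since enriched loci as a class were lower in CC9 dunni at replicate 3: of the 924 loci with a CC9 pahari mean above 2, 447 were lower on replicates 1 and 2, and 439 of these (98.2%) were lower at replicate 3, whereas of the 477 that were higher on replicates 1 and 2, 69 (14.5%) were higher at replicate 3. With equal spread, also chosen after the data were seen, replicate 3 agreed at 12 of the 13 higher loci but at 7 of the 22 lower, whose median there was 1.16. On that scale enriched loci as a class were higher in CC9 dunni at replicate 3. Of the 269 that were higher on replicates 1 and 2, 263 were higher there too, and of the 655 that were lower, 31 were lower. With normexp replicate 3 agreed at 10 of the 13 and 20 of the 22, whose medians there were 0.23 and −0.57. The fit of replicates 1 and 2 itself passed 1 locus with equal spread, higher in CC9 dunni and so at replicate 3 too, and 42 higher and 296 lower with normexp, of which 18 and 290 kept their side at replicate 3. No probe passed in the earlier period alone in limma (0% of 88737), with 13165 at an unadjusted p under 0.05.

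**Figure D3:**
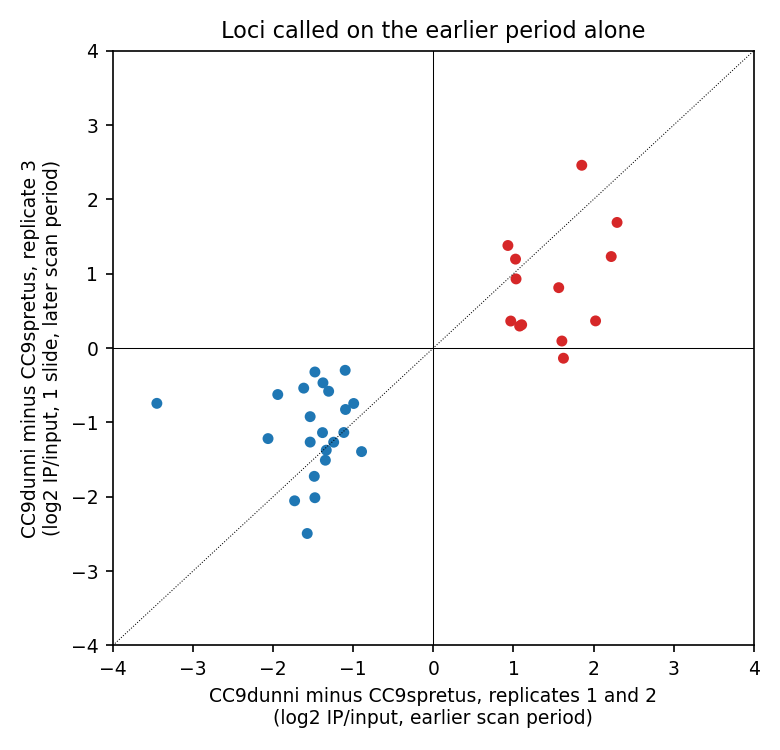
Each point is 1 of the 35 loci that passed in limma on replicates 1 and 2 alone, with the difference in log2(IP/input), CC9 dunni minus CC9 spretus, on those replicates on the horizontal axis and at replicate 3 on the vertical axis; the dotted line marks equal values. Of the 13 loci higher in CC9 dunni (red), 12 are above 0 at replicate 3, and the 22 lower loci (blue) are all below 0, on this scale.

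Whether the difference between the lines itself changed with the scan period was tested as an interaction. Of 88698 probes 0 (0%) passed in limma, with 7933 at an unadjusted p under 0.05 and a smallest adjusted p of 0.427, and of the loci 0 passed, with 1555 and 0.277. The later period holds 1 array per line, which was assumed to vary like the replicates of the earlier period. Under that limit the 39 loci differed by 0.64 to 2.29 in the earlier period and 0.60 to 2.46 in the later where higher, and by −4.03 to −0.66 and −2.63 to −0.64 where lower. These loci were chosen on all the arrays, so their side in each period is not a separate result.

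A fixed threshold was also applied, by which a probe is named hypermethylated or hypomethylated in a line where its mean over the 3 arrays was above 2 or below −2. The study used cutoffs of the same size on log2 ratios together with a cutoff on *Z*-scores, which was not applied here, so the lists below are not those of the study. By the fixed threshold the lines had most hypermethylated probes in common. CC9 spretus had 4576 and CC9 dunni 4723, and 4059 were in both, 88.7% of the first list and 85.9% of the second. In these shared probes the median was 3.63 in CC9 spretus and 3.51 in CC9 dunni. The hypomethylated lists were shorter and shared less, with 955 probes for CC9 spretus and 520 for CC9 dunni, of which 168 were in both, 17.6% and 32.3% of the lists. No probe was past the threshold in opposite directions.

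In all, 2320 probes (2.61%) were past the threshold in 1 line only: 664 hypermethylated in CC9 dunni only, 517 in CC9 spretus only, 352 hypomethylated in CC9 dunni only and 787 in CC9 spretus only. Many of these were near the threshold in the other line. The 664 had a median of 2.22 in CC9 dunni and 1.70 in CC9 spretus, and 531 of them differed by less than 1, while the 517 had medians of 2.32 in CC9 spretus and 1.70 in CC9 dunni, and 324 differed by less than 1. The 352 had medians of −2.17 in CC9 dunni and −1.61 in CC9 spretus, and 292 differed by less than 1, while the 787 had medians of −2.17 in CC9 spretus and −1.39 in CC9 dunni, and 475 differed by less than 1. Over the whole array 26 of 88737 probes (0.0293%) passed limma. Of these, 14 were among the 664, 5 among the 517, 1 among the 787 and 0 among the 352. Of the 352, 91 had an unadjusted p under 0.05. The lists were set by the means of the lines, so these counts are not a separate result. The lists depended on the scan period: hypermethylated in 1 line only were 1019 probes for CC9 dunni and 347 for CC9 spretus in the earlier period, and 413 and 2332 in the later. Hypomethylated in 1 line only were 1368 for CC9 dunni and 2005 for CC9 spretus in the earlier period, and 56 and 165 in the later. The lists also depended on scaling, with 1450 and 234 hypermethylated and 413 and 472 hypomethylated under equal spread, and 92 and 662, and 1 and 20, under the normexp background correction. With every array of a line past the threshold they were 625 and 449, and 2 and 27. Which line had more changed with single arrays. Hypermethylated in CC9 dunni only and in CC9 spretus only were 686 and 607 without CC9 spretus replicate 1, 392 and 1198 without replicate 2 and 1047 and 321 without replicate 3, and 694 and 476, 719 and 474, and 768 and 675 without CC9 dunni replicate 1, 2 or 3. Hypomethylated were 478 and 167, 349 and 1244, and 189 and 2737 without CC9 spretus replicate 1, 2 or 3, and 148 and 881, 138 and 873, and 2022 and 546 without CC9 dunni replicate 1, 2 or 3. The total was 4294 without CC9 spretus replicate 3 and 4011 without CC9 dunni replicate 3.

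Large differences without regard to a test were mostly at dim probes. A rise of at least 1 in CC9 dunni was found at 2256 probes and a fall of at least 1 at 790. The IP and input signals were well above background on all 6 arrays at 28.4% of the former and 36.2% of the latter, against 76.8% of all probes. The 2256 probes had medians of −1.24 in CC9 spretus and 0.18 in CC9 dunni, and the 790 had 1.57 and 0.13. At the level of loci, where probes are averaged, the order of the directions was the reverse, with 35 loci higher and 72 lower by at least 1. The part of the dim signals in these counts was not tested.

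Over whole chromosomes the median difference in log2(IP/input) was between −0.06 (chromosome 10) and 0.06 (chromosome 8). The medians of single arrays are given relative to a mean over arrays. At replicate 3 they were above 0 in both lines on every chromosome. On chromosome 8 replicates 1, 2 and 3 read −0.08, −0.05 and 0.13 in CC9 spretus and −0.02, 0.01 and 0.19 in CC9 dunni. On chromosome 10 they read −0.02, −0.002 and 0.13 in CC9 spretus and −0.08, −0.06 and 0.06 in CC9 dunni. Same-numbered arrays thus differed in the same direction at all 3 numbers, while the lines overlapped, and in the earlier period alone the differences were 0.06 on chromosome 8 and −0.06 on chromosome 10. Leaving out 1 array, which unbalances the scan periods, gave 0.02, 0.04 and 0.13 on chromosome 8 without CC9 spretus replicate 1, 2 or 3 and 0.10, 0.09 and −0.0017 without CC9 dunni replicate 1, 2 or 3, and on chromosome 10 −0.09, −0.08 and −0.01 and −0.03, −0.04 and −0.10. The input signal, which reports the amount of DNA and not its methylation, differed most on chromosome 8. Relative to the mean of the 9 arrays, the median input of its 4989 probes was −0.04, 0.06 and 0.04 in CC9 spretus and −0.15, −0.17 and −0.24 in CC9 dunni. CC9 pahari read 0.14, 0.14 and 0.25 in input on chromosome 8. Each CC9 dunni array was below each CC9 spretus array, and the difference of −0.21 had a two-sided exact permutation p of 0.1, the smallest that 3 against 3 arrays can give, and 0.5 after Benjamini-Hochberg adjustment over 20 chromosomes. Chromosomes 10, 11 and 14 reached the same p with input differences of 0.08, 0.07 and −0.06. Chromosome X differed by −0.15 in input, and its arrays overlapped between the lines. Replicates 1, 2 and 3 read 0.16, 0.17 and −0.01 in CC9 spretus and 0.04, 0.08 and −0.24 in CC9 dunni. At each replicate number CC9 dunni was below CC9 spretus. The difference on chromosome X was −0.04 without CC9 dunni replicate 3 and −0.21 without CC9 dunni replicate 2. On chromosome 1 CC9 spretus replicate 2 stood apart with 0.26, against −0.01 and 0.04 in replicates 1 and 3 of that line and −0.07 to 0.02 in CC9 dunni. On chromosome 8, 2 of 824 loci passed as higher and 3 as lower in CC9 dunni, and on chromosome 1, 2 passed as lower among 798, against 10 higher (0.0686%) and 29 lower (0.199%) of all 14580 loci. The part of the input in these calls was not tested.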

How the data were processed

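MeDIP (IP, Cy5) and input (Cy3) DNA were measured on 12 Agilent arrays, of which 6 are compared here. Per the file headers, signals were extracted with Agilent Feature Extraction 11.0.1.1. The deposited processed signals are a fluorescence intensity, from which the authors' software had removed background and spatial trends before a linear dye normalisation. The deposited ratio is log10 of the IP over the input intensity, and the table of the series held the same values as the files of the arrays (largest difference 0). Other deposited columns are flags of the scanner software (control spot, outlier, well above background). Log2(IP/input) was computed from the processed signals of probes that are not controls, outlier spots were set to missing, and the median of each array was subtracted.

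Differences were fitted across all probes, and across all loci, with limma 3.58.1 in R 4.3.3 (lmFit, eBayes) on the 9 arrays of CC9 spretus, CC9 dunni and CC9 pahari, with line and scan period as terms and 5 residual degrees of freedom. Arrays of a slide were taken as independent, though their estimated correlation within a slide was 0.63 over probes and 0.68 over loci. Standard errors and p-values therefore rest in part on the spread within slides. A probe or locus passed at a Benjamini-Hochberg adjusted p under 0.05, also called a call. CC9 mus was scanned in the later period only and was not used in the fit. The named probes were, in each direction, up to 10 with the largest difference among those that passed without overlap between the arrays of the lines, 1 per locus, and loci with 3 or more such probes. The arrays, lists and rules were chosen with earlier results of these data known. The fit was tested on simulated data. Python 3.11.15, numpy 2.4.6, pandas 2.3.3 and matplotlib 3.10.9 were used.

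Replicate numbers were checked for pairing: the deviations of same-numbered arrays from their line means correlated across probes at 0.322, 0.144 and 0.541, but CC9 spretus replicate 1 and CC9 dunni replicate 2 also at 0.37, and arrays of different periods at −0.479 to −0.152. A replicate block was tried. Other alternatives were fits on 6 or 12 arrays or on the earlier period, no scan period, scan day or slide as a block, no centring, equal spread (arrays scaled to the same median absolute deviation), normexp background correction (offset 50) of median signals, the deposited ratios, dim probes left out, outlier spots kept, eBayes with trend and robust, array weights, other gaps between probes of a locus, other thresholds, and each of the 6 arrays left out in turn. The number of arrays limits the precision. The files pair no probe with a gene, and the annotation at hand was on another build than mm9, so gene names, gene lists and probe sequences were not used here.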

Additional observations from a re-analysis of the deposited data

How the results depend on the processing

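None of the 11 named probes changed direction in any alternative, and none of the 39 loci did in 15. They were chosen by their differences on the same arrays, so this is not a separate result. Several alternatives also leave the estimate itself unchanged. At A_68_P24155690 it was 2.66 on 6 or 12 arrays, without the scan period and with a replicate block. The count of 26 probes was 0 in limma on 6 arrays (10343 at an unadjusted p under 0.05), 12 arrays (2152) and the earlier period alone (13165), with a replicate block (10506) and with scan day (6681). It was 4 without the scan period, 44 with slide as a random block, 11 with equal spread, 40 with normexp, 216 without dim probes, where fewer probes were tested, and 112 with trend and robust. Leaving out 1 array gave 0 to 51. The count of 39 loci was 13 on 6 arrays (12 among the 39), 5 without the scan period (5), 18 with a replicate block (18), 20 with scan day (8), 188 with slide as a random block (39) and 10 with equal spread (7), and leaving out 1 array gave 3 to 43. On the earlier period alone, chosen after seeing the data, it was 35, and 1 with equal spread (2570 unadjusted) and 338 with normexp. The 2320 probes past the fixed threshold in 1 line only became 1103 with the threshold on every array, 6205 at 1.5, 775 with normexp, and 1938 to 4294 on leaving out 1 array. The interaction with scan period stayed at 0 probes in limma with equal spread (12935 unadjusted), normexp (10094) and 6 arrays (4525). The causes were not tested. Signals over background limit the reading of dim probes.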
